A study of Caenorhabditis elegans with 2 samples.

Results

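Peroxisome genes of the worm Caenorhabditis elegans were examined for peaks of the intestinal transcription factor ELT-2 in late embryos. The genes were taken by name: every protein-coding gene whose name in the WBcel235 Ensembl annotation starts with prx-, pmp-, acox- or ech-, together with dhs-28, daf-22, maoc-1 and ctl-2. This gave 37 of 19985 protein-coding genes. Of these, 11 were assembly genes (prx), 5 were transporter genes (pmp) and 21 were enzyme genes. A gene was counted as having a promoter peak when the summit of a thresholded ELT-2 peak lay between 1000 bp upstream and 200 bp downstream of a transcript 5′ end. By this measure 18 of the 37 genes (48.6%) had a promoter peak, against 2734 of all 19985 protein-coding genes (13.7%). The assembly genes had one in 7 of 11 cases (63.6%) and the enzyme genes in 9 of 21 cases (42.9%).

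Peroxisomes are small organelles bounded by a single membrane, and they shorten fatty acids that mitochondria handle poorly. Peroxins, the products of the prx genes, insert membrane proteins and import folded enzymes from the cytosol, and half-size ABC transporters of the pmp family carry acyl-CoAs across the membrane. Inside, an acyl-CoA oxidase, an enoyl-CoA hydratase, a hydroxyacyl-CoA dehydrogenase and a thiolase act in turn, and catalase removes the hydrogen peroxide made by the oxidase. In C. elegans the same cycle, with acox enzymes, MAOC-1, DHS-28 and DAF-22, trims the side chains of the ascaroside pheromones, and the intestine is a main site of fat storage and of this chemistry. The prefix ech marks a protein family and not an organelle: ech-6 encodes a mitochondrial short-chain enoyl-CoA hydratase, and ech-1.1 and ech-1.2 resemble the alpha subunit of the mammalian mitochondrial trifunctional protein.

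The data are peak lists from chromatin immunoprecipitation with sequencing of 2 libraries, labelled as biological replicates 1 and 2 of a single group. The animals were hermaphrodites of strain OP56, with the genotype unc-119(ed3) III; wgIs56, a transgenic line that stably expresses ELT-2 fused at its C terminus to GFP and FLAG. They were collected as late embryos 4 hours after synchronization by egg bleaching, with the age given as unknown, and the chromatin of whole animals was sonicated and precipitated with an antibody to GFP. Nothing beyond the word biological says whether the replicates were separate cultures, every animal carried the transgene, and no control library was used here, which leaves no groups of samples to compare and no test to make. The material was whole embryos, so a peak shared by many cells with little ELT-2 and one of few cells with much ELT-2 cannot be told apart. The number of reads per library is unknown. The thresholded list held 4098 peaks, which were exactly the 4098 strongest of the 30000 entries called on the pooled replicates. The peak signal is the authors' own value on a scale that the sources used here do not give, and it ran from 67.6 to 1740 in the thresholded list, with a median of 108. As a check of the tissue, 4 of 8 intestinal marker genes had a promoter peak. These were cpr-6 (signal 434), ifb-2 (263), act-5 (139) and elt-7 (111). The others, ges-1, asp-1, pho-1 and elt-2, had none, and 3 of them had no entry of the pooled list in the window either. Markers of body wall muscle had one in 1 of 6 cases (deb-1, 72.4) and of epidermis in 1 of 6 (nhr-25, 128). Markers of neurons had one in 1 of 6 (rab-3, 82.6), of germline in 1 of 5 (cgh-1, 231) and of pharynx in 0 of 4. The signal at cgh-1 was above those at act-5 and elt-7, so the check separates the tissues only in part.

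The sequences at the summits are shown for 12 of the genes, since the site counts below are read from windows of this kind. Whether a gene was counted as having a promoter peak did not depend on a GATA site. Each runs 5′ to 3′ on the strand of the gene and covers the summit base with 50 bases on either side (101 bases), read from the RefSeq copy of the WBcel235 genome, the assembly that UCSC calls ce11. Capitals mark TGATAA, the core site to which ELT-2 binds, or its reverse complement TTATCA. The first 10 carry at least 1 site, and the last 2, from prx-6 and maoc-1, carry none.
prx-5 (chrII:8704547-8704647, plus strand): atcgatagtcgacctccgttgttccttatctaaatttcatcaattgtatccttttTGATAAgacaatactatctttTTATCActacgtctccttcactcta
prx-13, nearer summit (chrII:7252145-7252245, minus strand): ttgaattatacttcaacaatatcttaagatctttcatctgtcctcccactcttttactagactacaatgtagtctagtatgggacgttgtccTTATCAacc
prx-12 (chrX:11393061-11393161, plus strand): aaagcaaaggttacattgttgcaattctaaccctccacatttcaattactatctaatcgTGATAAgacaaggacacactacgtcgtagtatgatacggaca
prx-19 (chrIII:8809375-8809475, minus strand): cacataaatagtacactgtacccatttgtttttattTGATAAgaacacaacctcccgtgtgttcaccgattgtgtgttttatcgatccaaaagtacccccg
pmp-4 (chrIV:17406275-17406375, minus strand): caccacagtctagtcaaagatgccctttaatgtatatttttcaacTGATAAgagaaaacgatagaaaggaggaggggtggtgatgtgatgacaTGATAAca
acox-1.6 (chrX:15838697-15838797, minus strand): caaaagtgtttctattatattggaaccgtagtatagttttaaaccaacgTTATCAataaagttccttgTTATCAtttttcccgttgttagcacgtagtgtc
daf-22 (chrII:12425917-12426017, minus strand): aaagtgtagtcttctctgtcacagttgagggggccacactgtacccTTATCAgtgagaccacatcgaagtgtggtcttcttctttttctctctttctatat
dhs-28 (chrX:6818154-6818254, plus strand): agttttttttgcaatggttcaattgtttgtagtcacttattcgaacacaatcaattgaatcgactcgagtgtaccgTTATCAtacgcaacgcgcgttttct
ech-5 (chrIV:796709-796809, plus strand): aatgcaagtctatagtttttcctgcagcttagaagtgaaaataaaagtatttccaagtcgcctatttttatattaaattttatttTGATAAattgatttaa
ech-8 (chrIV:10239174-10239274, minus strand): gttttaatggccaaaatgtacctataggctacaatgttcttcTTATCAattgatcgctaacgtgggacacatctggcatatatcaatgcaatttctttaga
prx-6, nearer summit (chrV:4720081-4720181, minus strand): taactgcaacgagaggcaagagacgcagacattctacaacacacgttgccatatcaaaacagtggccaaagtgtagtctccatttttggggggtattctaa
maoc-1 (chrII:7196243-7196343, plus strand): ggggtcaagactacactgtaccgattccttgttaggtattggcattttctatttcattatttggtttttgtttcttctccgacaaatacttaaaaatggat

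The GATA core site lay close to most summits of these genes. TGATAA, searched on both strands, was found within 50 bp of 15 of 20 summits in the promoter windows of the 37 genes (75%, exact 95% interval 50.9 to 91.3%, which covers counting error only). Over all summits in promoter windows it was found in 38.2% (895 of 2344), and over all thresholded summits in 43.5% (1784 of 4098). The longer site TGATAAG was found at 10 of the 20 summits (50%), against 23.3% of all promoter summits, and the shorter GATAA, which both of the longer words contain, at 18 of 20 (90%), against 51.2%. The count of summits with more than 1 TGATAA was 4 of 20 (20%), against 16.5% of all promoter summits. Related gene lists, described below with the neighbouring pathways, differed in TGATAA at the strongest promoter summit of each gene. Among other peroxisome genes with a promoter peak, all but hacl-1 had it. Among acyl-CoA synthetases with a promoter peak, all but acs-1 had it. Of the mitochondrial beta-oxidation genes, only acdh-7, cpt-4 and hacd-1 had it. Of the fatty acid regulators only nhr-80 and sbp-1 had it, and of the propionate breakdown genes only pccb-1. The site was thus not particular to the 37 genes. These counts describe the letters at the summits, and no site was tested for binding.

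By role, TGATAA was found at 6 of 9 assembly summits, 2 of 2 transporter summits and 7 of 9 enzyme summits, so the counts of assembly and enzyme summits were 1 apart, and this was not tested. The 20 summits belong to 18 genes, and the pair at prx-13 lie in overlapping entries. The site centre lay within 12 bp of the summit at prx-5 (7.5 bp), prx-12 (11.5 bp), prx-19 (11.5 bp), pmp-4 (2.5 bp), acox-1.6 (1.5 bp), daf-22 (1.5 bp) and ech-8 (5.5 bp). In ech-5, dhs-28 and the nearer prx-13 summit it lay 37.5, 28.5 and 44.5 bp away, towards the edge of the printed window. The summits without a site were those of prx-3, maoc-1 and ech-1.2 and both summits of prx-6. Of these, the prx-3 and the ech-1.2 windows held GATAA, as did the farther prx-6 summit, and those of maoc-1 and of the nearer prx-6 summit held not even the short form. No summit of the 20 lay within 200 bp of a tRNA gene, where 2.94% of all promoter summits (69 of 2344) and 6.03% of all thresholded summits were found.

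A wider look gave a smaller contrast. In a window of the same 1201 bp as the promoter window, laid at the gene start, TGATAA was present in 18 of 18 of the genes with a promoter peak and in 14 of 19 of those without one (73.7%). Over all protein-coding genes it was present in 78.8% of those with a promoter peak and in 70.9% of those without, so the word is common at this length. The genes without a site anywhere in that window were prx-2, prx-11, ech-2, ech-3 and ech-7, and none of them had a promoter peak.

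**Figure D1:**
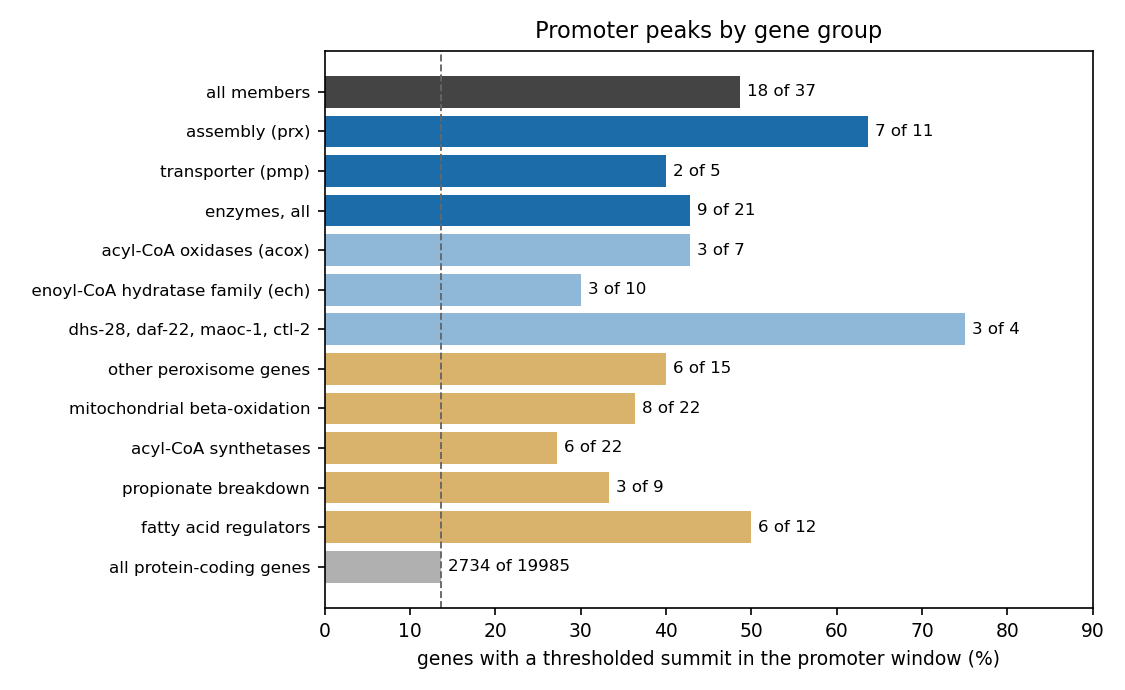
Share of genes with a thresholded ELT-2 summit in the promoter window, in percent, for the 37 peroxisome genes, their roles, 5 further gene lists and all protein-coding genes, with the number of genes beside each bar. The dashed line is the 13.7% of all protein-coding genes, and each bar for the assembly, transporter and enzyme genes extends past it.

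Promoter peaks were found in each of the 3 roles. The transporter genes had one in 2 of 5 cases (40%). Among the enzymes the acyl-CoA oxidase genes had one in 3 of 7 cases, the ech family in 3 of 10 and the remaining set of dhs-28, daf-22, maoc-1 and ctl-2 in 3 of 4. The assembly share was higher than the enzyme share, but with 11 and 21 genes the difference amounts to a few genes and was not tested. The enzyme share includes the ech family, whose name does not mark an organelle and whose share was the lowest of the 3 enzyme groups. The strength of the peaks did not order the roles in the same way: the median signal of the strongest promoter peak was 111 over the 7 assembly genes, 142 over the 2 transporter genes and 115 over the 9 enzyme genes, against 111 over all protein-coding genes with a promoter peak. The 37 genes thus carried promoter peaks more often than the background, with signals of ordinary height. By chromosome, peaks were found at 5 of 8 of the genes on II, 5 of 8 on IV, 4 of 5 on X, 2 of 7 on I, 1 of 4 on III and 1 of 5 on V. The share of all protein-coding genes was not counted by chromosome, so these counts do not say that any chromosome stands out.

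**Figure D2:**
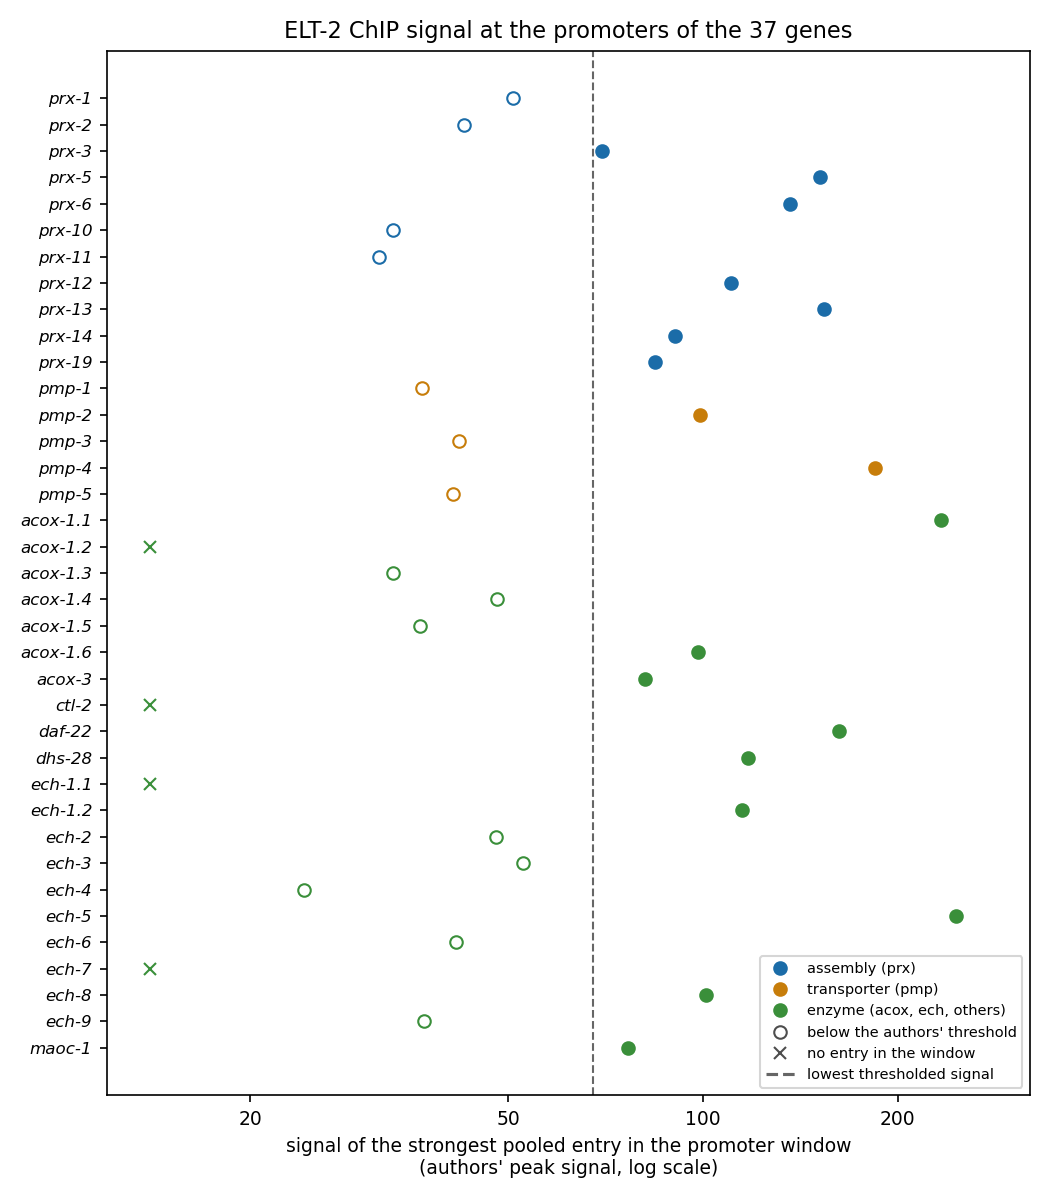
Signal of the strongest pooled entry in the promoter window (log axis) for each of the 37 genes, coloured by role. Filled points passed the authors' threshold, open points did not, crosses mark the 4 genes with no entry in the window (drawn at the left edge, with no value), and the dashed line is the lowest thresholded signal, 67.6; the filled points run from 69.9 at prx-3 to 246 at ech-5.

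Among the assembly genes, prx-13 and prx-5, of the import receptor and its docking site, had the strongest peaks. In yeast, an import receptor carries enzymes with a C-terminal targeting signal, and docking proteins receive it at the membrane. The worm receptor gene prx-5 and the docking genes prx-13 and prx-14 all had a promoter peak. The prx-5 peak lay 227 bp upstream, with a signal of 152 in the pooled list (rank 1114 of 4098), 87.8 in replicate 1 and 63.7 in replicate 2. It also falls in the window of the homeobox gene ceh-7, so the list alone does not say to which gene it belongs. The prx-13 gene had a summit 180 bp upstream with a signal of 154 (rank 1080), with 76.4 in replicate 1 and 76.5 in replicate 2. A further prx-13 summit, 381 bp upstream in the 5′ UTR of the neighbouring ada-2, had a signal of 82.9 in an entry that overlaps the first, and both summits match the same entry in each replicate. Both also fall in the window of ada-2. The prx-14 peak, 96 bp upstream and in no other gene's window, was weaker, at 90.5 (rank 2712), with 37.8 in replicate 1 and 55.9 in replicate 2.

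The peroxins of membrane protein insertion both had a peak, near the lower end of the list. In yeast, this pair of proteins brings membrane proteins into the peroxisome. The prx-19 peak, 130 bp upstream, had a signal of 84.4 (rank 3019), with 51.0 in replicate 1 and 29.3 in replicate 2. The prx-3 peak, 154 bp upstream, had a signal of 69.9 (rank 3927), with 45.5 in replicate 1 and 26.5 in replicate 2. Both were higher in replicate 1, and prx-3 is the gene just inside the threshold. The next gene below it, outside the threshold, was ech-3 at 52.7.

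Receptor recycling genes differed among themselves. RING peroxins form a ubiquitin ligase complex, and AAA ATPase peroxins pull the modified receptor out of the membrane, as known from yeast. Of the RING peroxin genes only prx-12 had a promoter peak, 183 bp upstream with a signal of 111 (rank 1969), 55.1 in replicate 1 and 53.3 in replicate 2. The strongest pooled entries in the windows of prx-2 and prx-10 had signals of 42.7 and 33.2. A thresholded summit with a signal of 77.4 (rank 3384) and 1 TGATAA site lay 1394 bp downstream of the prx-2 5′ end. It was inside the gene but outside the window, in the 3′ UTR of ZK809.8. Of the ATPase genes prx-6 had 2 separate summits. One lay 38 bp upstream with a signal of 136 (rank 1368), 63.9 in replicate 1 and 69.9 in replicate 2. The other lay 990 bp upstream, 10 bp inside the window, with a signal of 121 (rank 1690), 62.0 in replicate 1 and 58.8 in replicate 2. Neither prx-6 summit carried TGATAA, and no other gene's window held them. The window of prx-1 held a pooled entry of 50.9, and a thresholded summit with a signal of 89.1 lay 1242 bp upstream, outside the window. For prx-11, whose yeast counterpart acts in peroxisome division, the pooled entry was 31.6 and a thresholded summit of 74.5 lay 1151 bp upstream, in an intron of gale-1.

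Among the transporter genes, pmp-4 and pmp-2 had promoter peaks. The pmp-4 gene had a summit 695 bp upstream with a signal of 184 (rank 743), 108 in replicate 1 and 75.6 in replicate 2, and with 2 TGATAA sites. The pmp-2 summit lay 58 bp downstream of its 5′ end, in the 5′ UTR, with a signal of 98.9 (rank 2365), 46.0 in replicate 1 and 51.3 in replicate 2. The 3 others were below the threshold at like levels, with pooled entries of 36.8 at pmp-1, 42.0 at pmp-3 and 41.1 at pmp-5.

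The acyl-CoA oxidases, which carry out the first and rate-setting oxidation step, held one of the strongest peaks of the set. The acox-1.1 peak on chromosome I lay 658 bp upstream with a signal of 234 (rank 433), 122 in replicate 1 and 113 in replicate 2, and had 3 TGATAA sites within 50 bp. The acox-1.6 peak, 201 bp upstream, had a signal of 98.5 (rank 2378), 46.3 in replicate 1 and 49.8 in replicate 2, and 2 sites. The acox-3 peak, 170 bp upstream, had a signal of 81.5 (rank 3164), 38.9 in replicate 1 and 47.6 in replicate 2, and 1 site. The replicates were close for all 3 genes. The other 4 oxidase genes had no promoter peak, but strong summits lay beyond the windows of 3 of them. A summit with a signal of 205 (rank 581) and 2 TGATAA sites lay in an intron of acox-1.3, 3004 bp downstream of its 5′ end and 1198 bp upstream of acox-1.4, which follows it on the chromosome. A summit with a signal of 246 (rank 383) and 1 site lay in an intron of acox-1.5, 1776 bp downstream of its 5′ end. Their own windows held pooled entries of 33.2 (acox-1.3), 48.1 (acox-1.4) and 36.6 (acox-1.5), and that of acox-1.2 held none.

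The later steps of the ascaroside cycle all had promoter peaks. The daf-22 gene encodes the thiolase that releases the shortened chain, and its peak, 273 bp upstream, had a signal of 162 (rank 978), 85.5 in replicate 1 and 79.7 in replicate 2. The dhs-28 gene encodes the hydroxyacyl-CoA dehydrogenase, and its peak, 234 bp upstream, had a signal of 118 (rank 1770), 61.6 in replicate 1 and 57.7 in replicate 2. Both had a TGATAA site, and neither peak fell in another gene's window. The maoc-1 gene encodes the enoyl-CoA hydratase, and its summit lay 17 bp downstream of the 5′ end, in the 5′ UTR. This was the weakest enzyme peak, at 76.6 (rank 3424), with 43.3 in replicate 1 and 31.4 in replicate 2, and it is shared with the window of acdh-12. No pooled entry lay in the window of the catalase gene ctl-2, where the nearest was 2681 bp away. That window holds no 50-base stretch that occurs only once in the genome (0% of such stretches), so reads from it could not be placed uniquely at that length. The read length is not given in the sources used here. The other windows with a low share of unique stretches were those of prx-2 (60.3%) and acox-1.4 (67.7%), and neither had a promoter peak.

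In the ech family the peaks fell on ech-5, ech-8 and ech-1.2. The ech-5 peak was the strongest of the 37 genes, 264 bp upstream with a signal of 246 (rank 377), 137 in replicate 1 and 109 in replicate 2, and it is shared with the window of F56B3.11. The ech-8 peak lay 48 bp upstream with a signal of 101 (rank 2271), 58.2 in replicate 1 and 43.7 in replicate 2. The neighbouring ech-9, on the same strand, had a pooled entry of 37.0. For ech-1.2, on chromosome I, the counted summit lay 208 bp upstream of an internal 5′ end and 1001 bp from the gene start, in an intron, with a signal of 115 (rank 1841), 70.7 in replicate 1 and 46.2 in replicate 2. A stronger summit of the same gene, with a signal of 156, lay 201 bp downstream of the gene start, 1 bp beyond the window, and no TGATAA was found at either. The remaining 7 genes were below the threshold, and their pooled entries had signals of 24.2 at ech-4, 37.0 at ech-9, 41.6 at ech-6, 48.0 at ech-2 and 52.7 at ech-3, with none at ech-1.1 and ech-7. A thresholded summit of 72.1 lay 1064 bp upstream of ech-2, just outside its window.

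**Figure D3:**
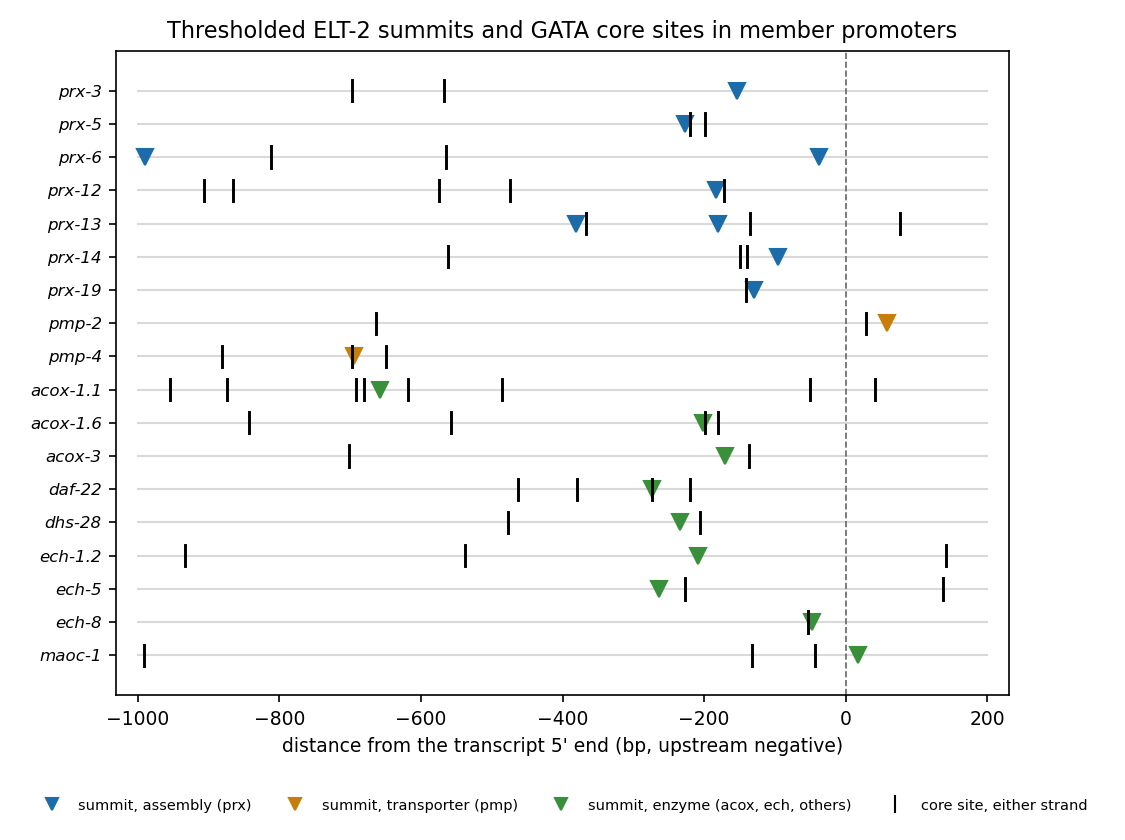
Summits of thresholded ELT-2 peaks (triangles, coloured by role) and GATA core sites on either strand (vertical bars) in the promoter windows of the 18 genes with a promoter peak. The horizontal axis is the distance in bp from the transcript 5′ end nearest to the strongest summit, with upstream negative; the strongest summits of 14 genes lie in the first 300 bp upstream.

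The summits were gathered close to the 5′ end. The strongest promoter summit lay at most 300 bp upstream in 14 of the 18 genes (77.8%), against 54.2% of all genes with a promoter peak, and its median distance was 181.5 bp, against 229 bp. All 7 assembly genes and 7 of 9 enzyme genes were in that stretch. The genes outside it were pmp-4 and acox-1.1, farther upstream, and pmp-2 and maoc-1, inside their own 5′ UTRs. Of the 18 genes, 4 (22.2%) had only peaks that also fall in another gene's window (prx-5, prx-13, ech-5 and maoc-1), against 41.2% of all genes with a promoter peak. The other 14 genes had summits that lay in no other gene's window.

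**Figure D4:**
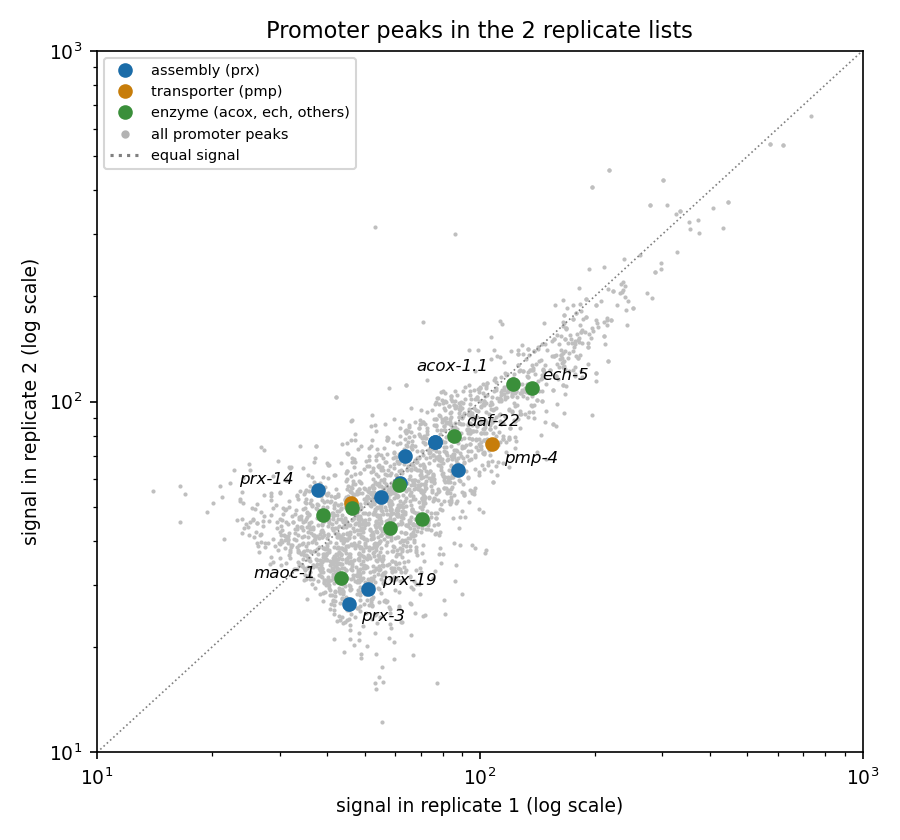
Signal in replicate 2 against signal in replicate 1 (both log axes) of the entries that overlap each promoter peak, for the 37 genes (coloured by role) and for all promoter peaks (grey). The dotted line is equal signal; the 2 prx-13 summits share 1 point, and prx-3, prx-19 and maoc-1 lie below the line with prx-14 above it.

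The replicates listed most of these peaks at like strength. Of the 20 peaks, 16 (80%) overlapped by at least 1 bp one of the 4098 strongest entries in both replicate lists, against 76.4% of all thresholded peaks. The exceptions were prx-3, prx-19 and maoc-1, which ranked 5796, 5007 and 4541 in replicate 2, and prx-14, which ranked 4162 in replicate 1. Thus 3 of the 4 are assembly genes. The log2 ratio of replicate 2 to replicate 1 had a median of -0.10 and an SD of 0.36 over the 20 peaks, with a range of -0.80 to 0.57, against a median of -0.19 and an SD of 0.47 over all thresholded peaks. Agreement between the replicates had already entered the authors' thresholding, so it is not independent evidence.

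Most genes below the threshold had a weaker entry. Of the 19 genes with no promoter peak, 15 (78.9%) had a weaker entry of the pooled list in the window, against 32.8% of all protein-coding genes with no promoter peak. These 15 entries had signals of 24.2 to 52.7 with a median of 41.1, against a median of 30.6 in the background. The 4 assembly and the 3 transporter genes without a peak all had one, as did 8 of the 12 enzyme genes, and acox-1.2, ctl-2, ech-1.1 and ech-7 had none. The pooled list is described by the authors as holding background as well as peaks, so a weak entry is not a called peak, and the sensitivity of these calls at unknown depth is not known.

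Neighbouring pathways also had promoter peaks at shares above the 13.7% of all protein-coding genes. Other peroxisome genes had one in 6 of 15 cases (40%), with signals of 244 at nlt-1, a lipid transfer protein gene, 125 at ads-1, an ether lipid synthesis gene, 102 at acl-7, also of ether lipid synthesis, 102 at hacl-1, 93.3 at agxt-1 and 79.1 at gstk-1. Mitochondrial beta-oxidation genes had one in 8 of 22 cases (36.4%), led by the carnitine palmitoyltransferase gene cpt-4 at 227 and by hacd-1 at 140, followed by acaa-2 (107), cpt-2 (101), acdh-7 (95.8), acdh-11 (79.3), acdh-12 (76.6) and kat-1 (74.2). The acdh-12 peak is the one shared with maoc-1. Peaks at beta-oxidation genes were thus not limited to the peroxisome. Acyl-CoA synthetases, which activate fatty acids for either organelle, had one in 6 of 22 cases (27.3%), at acs-7 (290), acs-4 (258), acs-12 (194), acs-13 (167), acs-1 (100.3) and acs-14 (97.03). Propionate breakdown genes had one in 3 of 9 cases (33.3%), at hach-1 (374), pccb-1 (142) and pcca-1 (78.3). Among transcription regulators of fat metabolism the count was 6 of 12 (50%), at nhr-68 (336), nhr-80 (224), sbp-1 (102), nhr-79 (96.6), nhr-66 (73.0) and nhr-49 (72.6). None of these lists was tested against the peroxisome genes.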

How the data were processed

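Chromatin immunoprecipitation of tagged ELT-2 was measured in 2 libraries of 1 group, replicate numbers taken from the labels. Per the deposited file listing, the authors called peaks per replicate and on the pooled replicates, and thresholded the pooled list for irreproducible discovery rate; the listing speaks of peaks with background as input for it. The deposited ce11 lists give a signal, a −log10 q-value and a summit per peak, all the authors' values. The −log10 q-value was tabulated but not used to choose peaks. The sources used here do not name the aligner, caller, threshold, signal scale or read numbers, and the ce10 lists were not used.

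Summits were placed in windows of 1000 bp upstream to 200 bp downstream of transcript 5′ ends (Ensembl release 115, WBcel235), with Python 3.11.15, numpy 2.4.6, scipy 1.17.1 and matplotlib 3.10.9, and the counting was tested on simulated data. Replicate entries were matched by an overlap of at least 1 bp, the strongest taken. Every gene of the set is named. The genes and lists were chosen with earlier results of these data known. Shares were set beside those of all protein-coding genes, with exact (Clopper-Pearson) intervals for site counts, and no list was tested. Alternatives were other windows, stricter and looser peak lists, each replicate alone, unshared summits and, chosen after seeing the data, only genes with 1 transcript 5′ end; the 50-base uniqueness measure was also chosen after seeing the data. Positions are 1-based.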

Additional observations from a re-analysis of the deposited data

How the results depend on the processing

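The share of peroxisome genes with a promoter peak stayed above that of all protein-coding genes, and the assembly share above the enzyme share, in 10 of 10 alternatives, though neither difference was tested. None of these alternatives left out the ech family, which had the lowest share among the enzymes. With only the 2049 strongest thresholded peaks, 10 of the 37 genes, 4 assembly, 1 transporter, 5 enzyme and 1420 of all genes had a promoter peak. With the full pooled list the counts were 33, 11, 5, 17 and 8397. Narrowing the window to 500 bp before and 100 bp after the 5′ end left 16 of the 37 genes (43.2%). These were 7 assembly, 1 transporter and 8 enzyme genes, against 2135 of all genes (10.7%). With summits in the window of 1 gene only, 14 of the 37 genes (37.8%) had a peak. These were 5 assembly, 2 transporter and 7 enzyme genes, against 1608 of all genes (8.05%). Restricted to genes with 1 transcript 5′ end, a choice made after seeing the data, 13 of 25 of the peroxisome genes (52%) and 4 of 6 assembly genes had a peak, against 1637 of 14510 of all genes (11.3%). From either replicate alone the counts were 15 to 17 of the 37 genes, 5 to 6 assembly, 2 transporter in either case, 8 to 9 enzyme and 2717 to 2753 of all genes. TGATAA was found at 45% of the 20 summits within 25 bp (all summits 27.9%), and TGATAAG at 50% within 50 bp (all summits 26.1%). The causes were not tested. A promoter peak was found under each setting that keeps all 37 genes for daf-22, dhs-28, ech-1.2, prx-12 and prx-6, and under none but the full pooled list, or not at all, for 13 genes. No paired analysis was possible because there is only 1 group of samples. Depth is unknown, so a missing peak is no evidence that ELT-2 was missing there.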

Other observations

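A further word recurred in the summit sequences of the peroxisome genes. TGTAGTC, or its reverse complement GACTACA, was noticed when the sequences were read, and was counted only afterwards, so the counts describe these sequences and support nothing. It lay within 50 bp of 6 of the 20 promoter summits (30%), against 1.45% of all promoter summits (34 of 2344) and 1.22% of all thresholded summits (50 of 4098). The 101-base windows of these 6 summits are printed on the strand of the gene and from the RefSeq WBcel235 genome, with TGTAGTC or GACTACA in capitals. Among them are the windows of maoc-1 and prx-6, which hold no TGATAA, and in prx-13 the word stands in both orientations, 1 base apart.
prx-6 (chrV:4720081-4720181, minus strand): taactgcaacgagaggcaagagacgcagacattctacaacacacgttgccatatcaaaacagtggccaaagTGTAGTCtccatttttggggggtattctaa
prx-13 (chrII:7252145-7252245, minus strand): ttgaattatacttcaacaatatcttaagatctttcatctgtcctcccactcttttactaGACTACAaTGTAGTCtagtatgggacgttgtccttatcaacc
acox-3 (chrIV:6248612-6248712, minus strand): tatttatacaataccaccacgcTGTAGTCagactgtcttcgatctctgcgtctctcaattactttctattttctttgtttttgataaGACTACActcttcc
daf-22 (chrII:12425917-12426017, minus strand): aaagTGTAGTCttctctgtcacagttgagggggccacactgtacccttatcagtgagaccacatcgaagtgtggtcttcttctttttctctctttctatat
dhs-28 (chrX:6818154-6818254, plus strand): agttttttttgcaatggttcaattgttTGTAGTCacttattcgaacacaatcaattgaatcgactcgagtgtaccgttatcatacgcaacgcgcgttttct
maoc-1 (chrII:7196243-7196343, plus strand): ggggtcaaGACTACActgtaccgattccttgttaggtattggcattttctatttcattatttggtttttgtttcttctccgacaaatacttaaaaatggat

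The word was not limited to the genes with a peak. In the 1201 bp window at the gene start it was present in 12 of the 18 genes with a promoter peak (66.7%) and in 7 of the 19 without one (36.8%), against 9.74% of all protein-coding genes and 11.3% of those with a promoter peak. By role it was present in 5 of 11 assembly genes, 1 of 5 transporter genes and 13 of 21 enzyme genes, among them 6 of 7 acyl-CoA oxidase genes, 4 of 10 ech genes and all of dhs-28, daf-22 and maoc-1. Some of these genes are related by descent and some neighbour each other, so they are not independent cases. The counts in the 1201 bp window also include the summit sequences in which the word was noticed. The word spelled backwards, CTGATGT, which has the same bases, was present in 4 of the 37 genes (10.8%), against 10.9% of all protein-coding genes, and at 0 of the 20 summits. TGTAGTC was picked from these sequences and CTGATGT was not, so a difference between them was fixed in advance and is no control. TGTAGTC was also present in 7 of 22 acyl-CoA synthetase genes, 4 of 15 other peroxisome genes, 4 of 22 mitochondrial beta-oxidation genes, 4 of 12 regulators and 1 of 9 propionate breakdown genes. No factor was matched to the word, and neither its binding nor any relation to ELT-2 was tested.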
